A study of Mus musculus with 9 samples.

Results

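Small noncoding RNA genes were followed through ac4C RNA immunoprecipitation of mouse testis poly(A) RNA. They are the genes that the GENCODE vM21 annotation types as snoRNA, snRNA, scaRNA, miRNA or misc_RNA, off the mitochondrial chromosome, and they were chosen by a summed count of at least 20 over the 9 libraries. Of 5705 such genes in the deposited table, 1013 had at least 1 count and 207 reached the limit, among 55401 genes in all. The 207 members were 64 of 2202 miRNA genes, 62 of 1507 snoRNA genes, 58 of 1383 snRNA genes, 19 of 562 misc_RNA genes and 4 of 51 scaRNA genes. Most carry only a provisional name, since 155 of the 207 have a symbol of the form Gm followed by digits. Because the members were selected on their summed count, that count describes them and is not a result.

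N-4-acetylcytidine (ac4C) is made in RNA by the acetyltransferase NAT10. In acetylation of 18S rRNA, NAT10 is linked to the rRNA by a box C/D small nucleolar RNA, U13, encoded by Snord13 in the mouse. Box C/D snoRNAs otherwise guide 2′-O-methylation and box H/ACA snoRNAs guide pseudouridylation, mostly of rRNA. Small nuclear RNAs (snRNAs) form the core of the spliceosome, scaRNAs guide their modification in Cajal bodies, and miRNA genes give short RNAs that repress mRNAs. Most of these RNAs have no poly(A) tail in their mature form, so libraries that start from oligo(dT) beads hold them at low level.

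All 9 libraries came from wild-type (WT) testis of male mice. Poly(A) RNA was isolated on oligo(dT) beads, and cDNA was made by Smart-seq2, which is primed on poly(A). The 3 input libraries had no antibody, 3 libraries were recovered with control IgG, and 3 libraries, called acRIP here and marked IP in the labels, were recovered with the anti-ac4C antibody. The mice were ICR by the methods, and neither labels nor methods say whether the 3 libraries of a group came from separate animals or precipitations, so the p-values measure only the spread between these libraries, which may be technical. Total counts ran from 22023925 to 31340090 in input, from 14647542 to 18786779 in IgG and from 16025779 to 18639134 in acRIP. The members held 1720 to 2976 of these counts in an input library, 4472 to 5561 in an IgG library and 7809 to 10005 in an acRIP library. Levels are given in CPM, the counts-per-million scale on which each count is divided by its library's total. Spermatid markers summed to 20666 to 22727 CPM in input, and liver and muscle markers to at most 1.31 CPM in any library. Erythrocyte markers summed to 156 to 160 CPM in input, 202 to 216 in IgG and 687 to 897 in acRIP. Of these 6 genes Hbb-bs was called higher in acRIP than both other groups and Alas2 lower. Hbb-bs had 2315, 2886 and 3095 counts in IgG and 10429, 15975 and 12979 in acRIP. Hba-a1 had 461, 450 and 482 in IgG and 388, 498 and 457 in acRIP. By the methods, an ac4C-containing mouse β-globin probe was added to the poly(A) RNA before precipitation. Its part in the Hbb-bs counts was not tested. The annotated 18S rRNA locus took 0.540% to 0.613% of input counts, 5.14% to 5.57% of IgG counts and 9.35% to 10.6% of acRIP counts. It moved the same way as the members' sum, and its part in the members' values was not tested. In whole testis, fewer cells of a type and less RNA per cell cannot be told apart.

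The sequences below are those of members the results turn on, read from the GRCm38 (mm10) genome at the gene's own strand, 5′ to 3′. The first 3 are box C/D snoRNAs. Snord118 (U8) lies at chr11:69073427-69073561, plus strand, Snord104 at chr11:106500993-106501062, plus strand, and Snord71 at chr8:109839295-109839379, plus strand. Capitals mark the C box letters TGATGA, where present, and the last D box letters CTGA.

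Snord118: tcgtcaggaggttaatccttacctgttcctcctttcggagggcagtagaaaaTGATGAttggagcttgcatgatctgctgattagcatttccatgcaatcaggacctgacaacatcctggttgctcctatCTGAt

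Snord104: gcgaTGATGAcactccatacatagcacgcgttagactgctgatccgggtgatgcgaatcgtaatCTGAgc

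Snord71: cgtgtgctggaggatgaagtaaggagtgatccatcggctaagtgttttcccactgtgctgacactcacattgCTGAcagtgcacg

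Searched on the gene's strand, TGATGA occurred in 11 of 62 snoRNA members (17.7%) and in 26.1% of all 1507 snoRNA genes. CTGA stood within the last 12 bases in 19.4% of the members and in 30.1% of all snoRNA genes. ACA, the letters that end a box H/ACA snoRNA, stood within the last 6 bases in 37 members (59.7%) and in 45.8% of all snoRNA genes.

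Among spliceosomal RNAs, Rnu12 (U12, chr15:83149644-83149794, plus strand) is shown with the letters ATTTTTG in capitals, a form of the site where the Sm protein ring binds. Gm25703 (chr2:129315329-129315479, minus strand) is a copy of U12 with 144 of 151 bases identical to Rnu12, and capitals mark its 7 differences.

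Rnu12: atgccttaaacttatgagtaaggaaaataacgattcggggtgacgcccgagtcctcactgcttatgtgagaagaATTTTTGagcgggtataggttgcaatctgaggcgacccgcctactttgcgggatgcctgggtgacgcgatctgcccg

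Gm25703: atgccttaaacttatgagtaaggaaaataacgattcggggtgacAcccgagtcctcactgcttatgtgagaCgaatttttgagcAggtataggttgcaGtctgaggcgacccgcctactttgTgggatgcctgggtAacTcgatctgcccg

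ATTTTTG occurred in 12 of 58 snRNA members (20.7%) and in 3.33% of all 1383 snRNA genes. Of the 12, 6 were U2, 3 U12, 2 U4 and 1 U1 genes, so the letters went with the family. The part of family make-up and of unique mapping in this difference was not tested.

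The miRNA gene Gm23935 (chr16:11144125-11144181, plus strand) has 57 bases. Gm24270 on chromosome 9 is identical to it, and Gm24187 (chr13:9834469-9834525, minus strand) differs at 1 base, G11A counted from the 5′ end and shown as a capital.

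Gm23935: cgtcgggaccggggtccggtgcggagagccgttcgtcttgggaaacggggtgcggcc

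Gm24187: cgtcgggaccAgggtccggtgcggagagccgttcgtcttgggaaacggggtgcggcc

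Mature sequences from the RefSeq table (GRCm38.p6) matched 26 of the 64 miRNA members by symbol. No seed (bases 2 to 8, in capitals) was shared between those members. The genes shown are the testis-linked Mir34b, and Mir509 and Mir468, which were called higher in acRIP than both controls. The libraries count the gene and not the mature product.

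miR-34b-5p: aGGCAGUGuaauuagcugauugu

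miR-34b-3p: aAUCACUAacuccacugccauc

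miR-509-5p: uACUCCAGaauguggcaaucau

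miR-509-3p: uGAUUGACauuucuguaaugg

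miR-468-5p: gACUGAUGuacugauaagaaacucagu

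As a set, the members took the largest share of counts in acRIP. Their summed level was 94.96, 88.4 and 77.5 CPM in the input libraries, 305, 296 and 297 CPM in IgG and 529, 537 and 466 CPM in acRIP. The 3 groups did not overlap. The acRIP mean of 510 ± 39.0 CPM (SD, n = 3) was 1.70 times the IgG mean of 299 ± 5.07 and 5.87 times the input mean of 87.0 ± 8.82. Control IgG alone stood at 3.44 times input. A sum over chosen members carries no test here.

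Snord13, Gm23935 and Snord118 held 61.8% of all member counts. Without these 3, the other 204 members summed to 51.8 to 56.5 CPM in input, 108 to 115 in IgG and 154 to 177 in acRIP, so acRIP was 1.49 times IgG. The snoRNA sum was 269.8 ± 28.3 CPM in acRIP and 180 ± 4.64 in IgG, and without Snord13 and Snord118 it was 36.3 ± 2.91 and 22.6 ± 2.85. The miRNA sum went from 24.02 ± 1.54 CPM in input to 73.3 ± 0.980 in IgG and 174 ± 12.7 in acRIP, and without Gm23935 it was 17.9 ± 2.14, 43.4 ± 2.53 and 64.3 ± 9.89. The snRNA sum was 18.1 ± 1.13, 34.0 ± 3.89 and 51.4 ± 2.24 CPM in the same order. The misc_RNA sum was 6.73 ± 1.27, 8.44 ± 0.221 and 13.6 ± 0.842 CPM. These 4 gene types had every acRIP library above every IgG library. The 4 scaRNA genes had the opposite order, with 1.43 ± 0.821 CPM in acRIP against 3.78 ± 0.781 in IgG, from 327 counts in all.

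**Figure D1:**
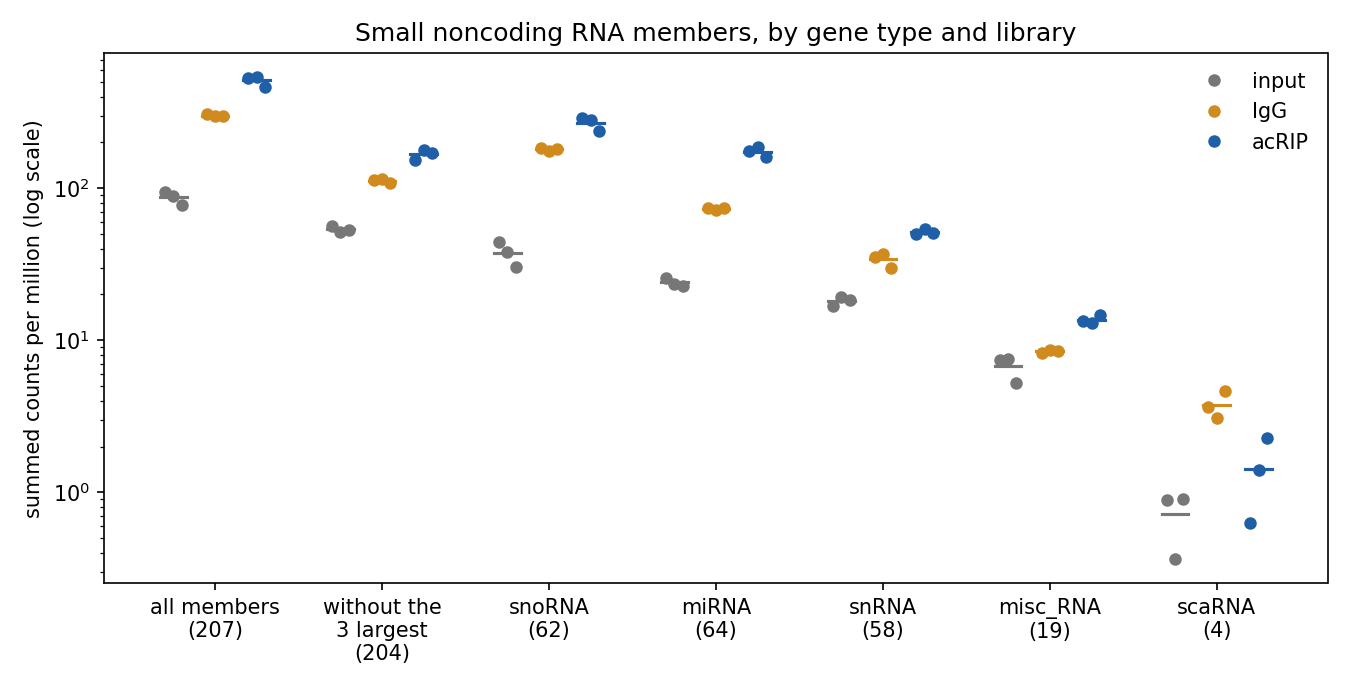
Summed CPM (log scale) of the members in each of the 9 libraries, for all 207 members, without the 3 largest, and by gene type, with the number of members in parentheses. Points are libraries and bars are group means (n = 3). In the 4 larger gene types the acRIP points lie above the IgG points, while the scaRNA points of acRIP lie below those of IgG.

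Each member was then tested for the question the design puts, whether RNA was recovered by the anti-ac4C antibody beyond both control IgG and input. The quasi-likelihood test of edgeR, with Benjamini-Hochberg adjustment over 22510 genes, was applied to the genes that passed its filter on low counts, and a call needed both a change of more than 2-fold and an adjusted p below 0.05. Of the 207 members, 91 passed the filter and 116 were too low to be tested. A member counted in 1 group alone can pass that filter only through the group where it is high, so the counts below describe the members that passed and not the gene types as wholes.

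Against IgG, 33 of the 91 tested members were higher in acRIP, where 11.5% of all tested genes were, and 8 were lower, where 20.9% of all tested genes were. Against input, 63 were higher in acRIP (17.7% of all tested genes) and 6 lower (22.9%). Between the controls, 42 members were higher in IgG than input (13.5% of all tested genes) and 4 lower (7.22%). Against both IgG and input, 29 members were higher in acRIP (7.88% of all tested genes) and 5 lower (17%). The median log2 fold change of the tested members was 0.90 for acRIP over IgG, against -0.09 over all tested genes, 2.56 over input against -0.10, and 1.38 for IgG over input against -0.01. With members at 0 in one group set to their lower bound, the medians were 0.90, 2.46 and 1.44. These medians leave out members at 0 in both groups, 1 for acRIP over input and 8 for IgG over input. For IgG over input they also leave out 3 members too low for a bound. Among the other tested genes of no more than 414 bases, the length of the longest member, 81 of 846 (9.57%) were higher in acRIP than both, with a median of 0.18 over IgG and 0.37 over input.

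Over all 207 members, every acRIP library was above every IgG library in CPM for 67, where 22.8% of all genes with a summed count of at least 20 were, and below for 53, where 39.3% were. Against input, 90 members were above (27.4% of such genes) and 23 below (44.3%), and in IgG against input 71 were above (26.1%) and 9 below (29.2%). When all 207 members were tested, on a summed count of at least 20 in place of the filter, 58 were higher and 54 lower in acRIP than IgG, and 50 were higher and 16 lower than both. Leaving out any of input replicate 1, 2 or 3, acRIP replicate 1, 2 or 3, or IgG replicate 2 or 3 raised the 8 members lower than IgG to between 13 and 20, with 111 to 122 members passing the filter.

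Of the 29 members higher than both, 11 were snoRNA, 8 snRNA, 8 miRNA and 2 misc_RNA genes. In all 29 every acRIP library was above each of the other 6. Of the 29, 10 reach a summed count of 20 without the acRIP libraries, and the other 19 were members only through acRIP. For these 19, the fold and p over the controls are no independent evidence. All IgG and input libraries were at 0 for 8 of the 29, and 9 have a near copy, at 95% identity or more over at least 90% of the length, in the annotation.

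**Figure D2:**
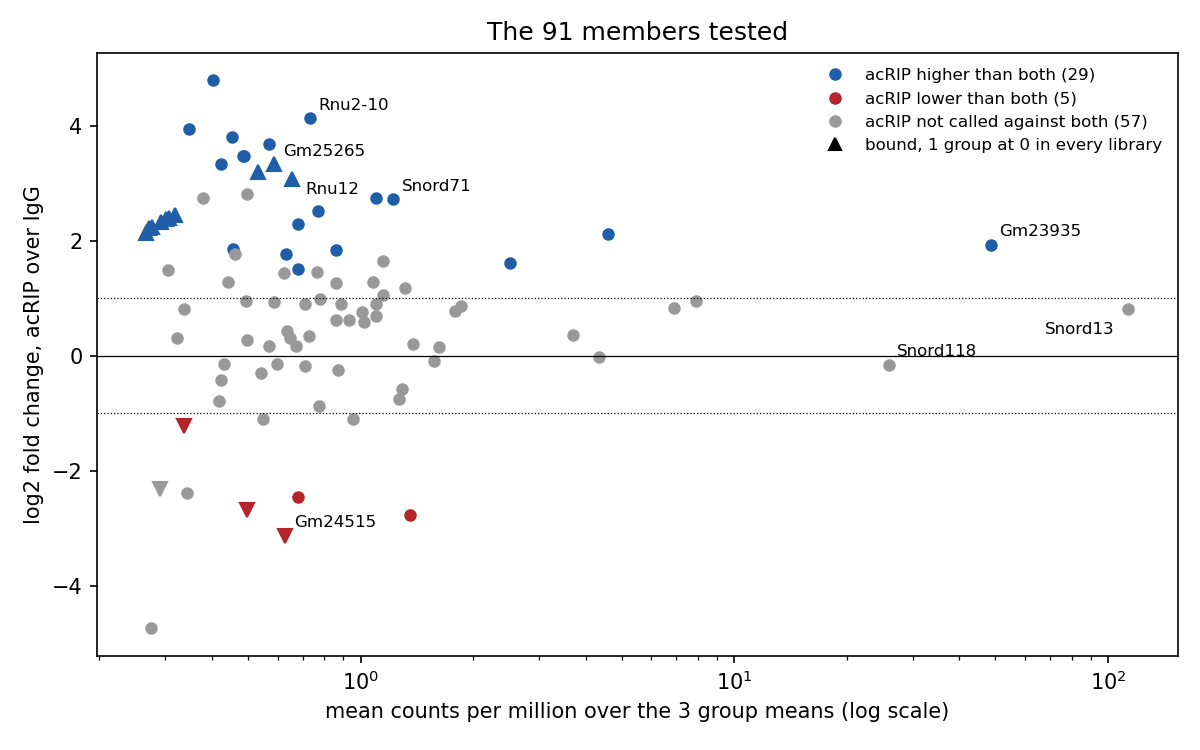
Log2 fold change of acRIP over IgG (vertical) against the mean of the 3 group means in CPM (horizontal, log scale) for the 91 tested members. Circles are fitted values, triangles are bounds computed against 3 counts per library for members at 0 in every library of one group, and dotted lines mark a fold of 2. Called members lie mostly at low counts, and of the 3 most counted members only Gm23935 lies above the upper dotted line.

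Among the snoRNAs, Snord13 (ENSMUSG00000088252.1), the guide of 18S rRNA acetylation, was the most counted member. It had 832, 534 and 386 counts in the input libraries, 1774, 2068 and 2286 in IgG and 3510, 3900 and 2852 in acRIP. Every acRIP library lay above every IgG library, and every IgG library above every input library. Its level was 199 ± 25.9 CPM in acRIP, 118 ± 6.96 in IgG and 22.7 ± 4.76 in input (SD, n = 3). The log2 fold change was 0.81 ± 0.09 (SE) over IgG, with an edgeR adjusted p of 2.27e-09, and so under the fold of 2 needed for a call. It was 3.20 ± 0.10 over input and 2.39 ± 0.10 for IgG over input. The gene lies between genes, 348 bases from Tti2.

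Snord118, the U8 snoRNA needed for processing of 5.8S and 28S rRNA, had 175, 96 and 64 counts in input, 573, 758 and 718 in IgG and 569, 725 and 468 in acRIP. The acRIP and IgG libraries overlapped in counts, and both lay above input. On the log2 scale it differed from IgG by -0.16 ± 0.13 (adjusted p = 0.292) and from input by 3.05 ± 0.15, with 3.20 ± 0.15 for IgG over input. The gene lies 134 bases from Tmem107.

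Snord104, a box C/D snoRNA that guides rRNA methylation, had 43, 22 and 35 counts in input, 32, 28 and 20 in IgG and 70, 84 and 84 in acRIP. Its log2 fold change over IgG was 1.61 ± 0.33, with an adjusted p of 0.000101. Snord71 had 22, 24 and 18 counts in input, 9, 7 and 3 in IgG and 41, 43 and 40 in acRIP. It lies in an intron of Ap1g1, an adaptor subunit of clathrin-coated vesicles, on the same strand, and rose by 2.73 ± 0.53 on the log2 scale over IgG while the host gene had -0.08. Over input Snord71 rose by 1.56 ± 0.46, a call lost in the test against a fold of 2 (adjusted p = 0.113). Snora31, a box H/ACA snoRNA in an intron of Tpt1, had 4, 2 and 0 counts in input, 0, 4 and 2 in IgG and 22, 19 and 24 in acRIP. Its log2 fold change was 3.47 ± 0.83 over IgG, against 0.06 in Tpt1. Snora31 reaches a summed count of 20 only through acRIP. For these 3 snoRNAs no acRIP library overlapped the others.

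The SNORA17 family, named by the overlapping RefSeq gene, held 13 members, of which 6 were tested and 4 called higher in acRIP than both. Of these, Gm24120 had 0, 0 and 1 counts in input, 6, 10 and 2 in IgG and 29, 49 and 23 in acRIP, and it is a member only through acRIP. Gm22039 had 18, 16 and 15 counts in acRIP and 0 in the other 6 libraries. Members of the same family ran the other way without being tested, such as Gm22545 with 6, 6 and 8 counts in IgG only. Gm26019 had 30, 31 and 21 counts in acRIP and 0 elsewhere, at least 9.10-fold higher than IgG against a floor of 3 counts per library, or 4.55-fold against 3 read pairs. Gm25697, of the SNORA67 family, had 12, 20 and 15 counts in acRIP and 0 elsewhere, at least 5.17-fold higher than IgG, or 2.58-fold against 3 read pairs. Gm25376 had 11, 17 and 12 counts in acRIP, a single 2 in input replicate 3 and 0 in IgG.

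**Figure D3:**
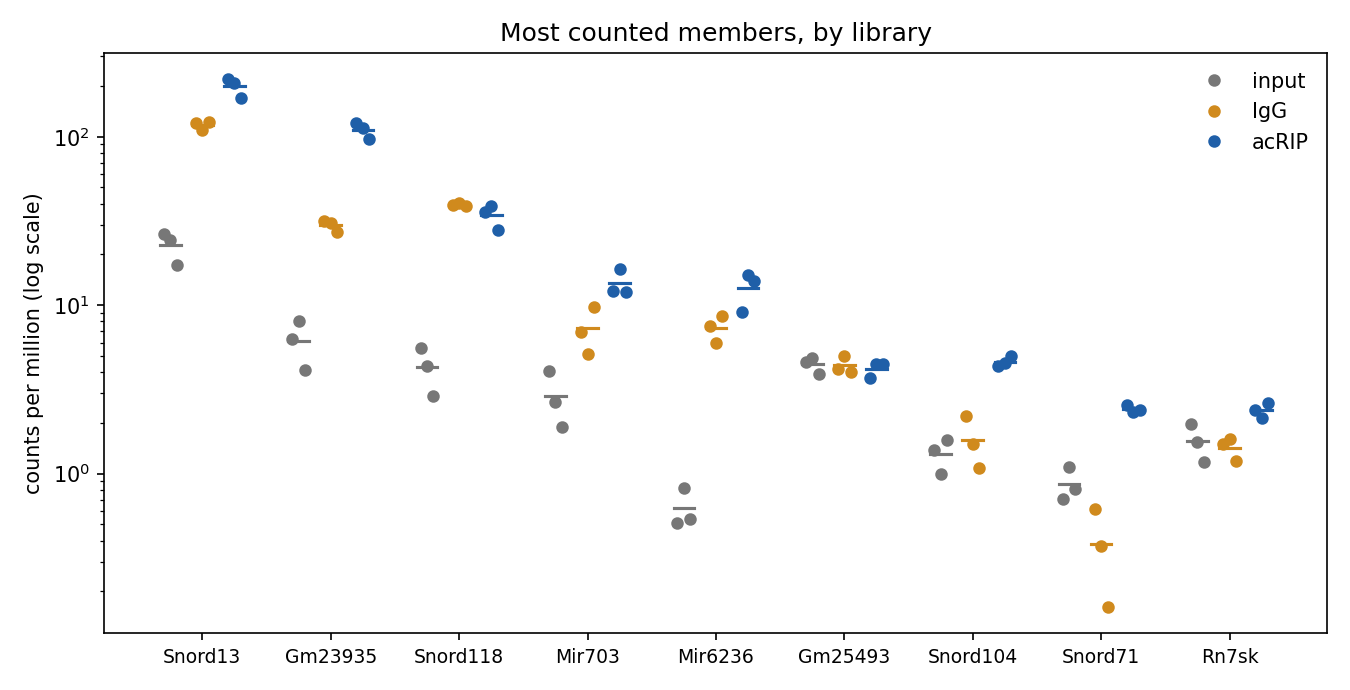
CPM (log scale) of 9 of the most counted members in each library, with bars at group means (n = 3). Snord13 and Gm23935 rise from input to IgG to acRIP, Snord118 stands as high in IgG as in acRIP, and Gm25493 lies at the same level in all 3 groups.

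Among the snRNAs, U12 genes of the minor spliceosome were counted mostly in acRIP. Rnu12, the U12 snRNA that recognises the branch site of U12-type introns, had 2, 0 and 0 counts in input, 4, 17 and 2 in IgG and 67, 42 and 36 in acRIP. No acRIP library overlapped the others. Its level was 2.86 ± 1.14 CPM in acRIP and 0.429 ± 0.421 in IgG, and the log2 fold change over IgG was 2.74 ± 0.61 (adjusted p = 0.000263). The U12 copy Gm25703 had 0, 2 and 4 counts in input, 0, 6 and 0 in IgG and 21, 21 and 23 in acRIP, a log2 fold change of 3.47 ± 0.90 over IgG. Gm25703 is a member only through acRIP, so its fold is no independent evidence. The other copy, Gm24525, had 3, 11 and 4 counts in input, 16, 18 and 19 in IgG and 16, 35 and 28 in acRIP, and was not called over IgG (0.62, adjusted p = 0.336).

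Rnu2-10, the U2 snRNA that pairs with the branch site of major introns, had 0, 4 and 0 counts in input, 0, 2 and 4 in IgG and 31, 34 and 39 in acRIP, a log2 fold change of 4.13 ± 0.82 over IgG (adjusted p = 5.7e-05). Rnu2-10 is a member only through acRIP, so this fold and p are no independent evidence. It has 12 near copies, and the other 5 U2 members were not called against both. Of these Gm24497, with 189 of 191 bases identical to Rnu2-10, had 14, 19 and 4 counts in input, 36, 18 and 33 in IgG and 26, 30 and 42 in acRIP. Reads that fit several copies were dropped by unique mapping, so the split between copies is uncertain. None of the 10 U1 members was called higher in acRIP than IgG, and 3 of the 4 tested were higher in acRIP than input.

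U6, the catalytic snRNA, had the most members of any family, 24, of which 13 were tested. Of these, 5 were higher and 2 lower in acRIP than both IgG and input. Identity to Rnu6 ran from 74.3% to 100%, with 4 members identical to it over its 107 bases. The identical copy Gm25256 had 0, 6 and 2 counts in input, 0, 4 and 2 in IgG and 18, 26 and 32 in acRIP, and it is a member only through acRIP. Gm23296, with 106 of 107 bases identical, had 4, 8 and 13 counts in input, 20, 23 and 15 in IgG and 0 in acRIP. Gm25327 had 0 counts in input, 30, 66 and 34 in IgG and 32, 44 and 40 in acRIP, at least 18.4-fold higher than input, or 9.18-fold against 3 read pairs, and overlapping IgG. Gm24430 had 13, 13 and 21 counts, Gm22305 had 14, 15 and 16 and Gm23462 had 11, 14 and 17, all in acRIP alone. These 3 share 82.2%, 88.0% and 87.9% of aligned positions with Rnu6. Gm25047 had 14, 13 and 17 counts in input, 4, 11 and 7 in IgG and 0 in acRIP. The least similar copy, Gm26049 (74.3%), had 40, 18 and 24 counts in input, 14, 16 and 15 in IgG and 14, 32 and 25 in acRIP, and was called in no comparison of acRIP (0.70 over IgG, adjusted p = 0.212). The family has over 100 near copies for 12 of its 24 members, and single copies are uncertain for the same reason as U2. A read lying wholly within a copy identical to Rnu6, such as Gm25256, fits Rnu6 as well and would be dropped. Counts of such copies therefore need reads or pairs that reach beyond them, and where those reads lie was not tested.

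**Figure D4:**
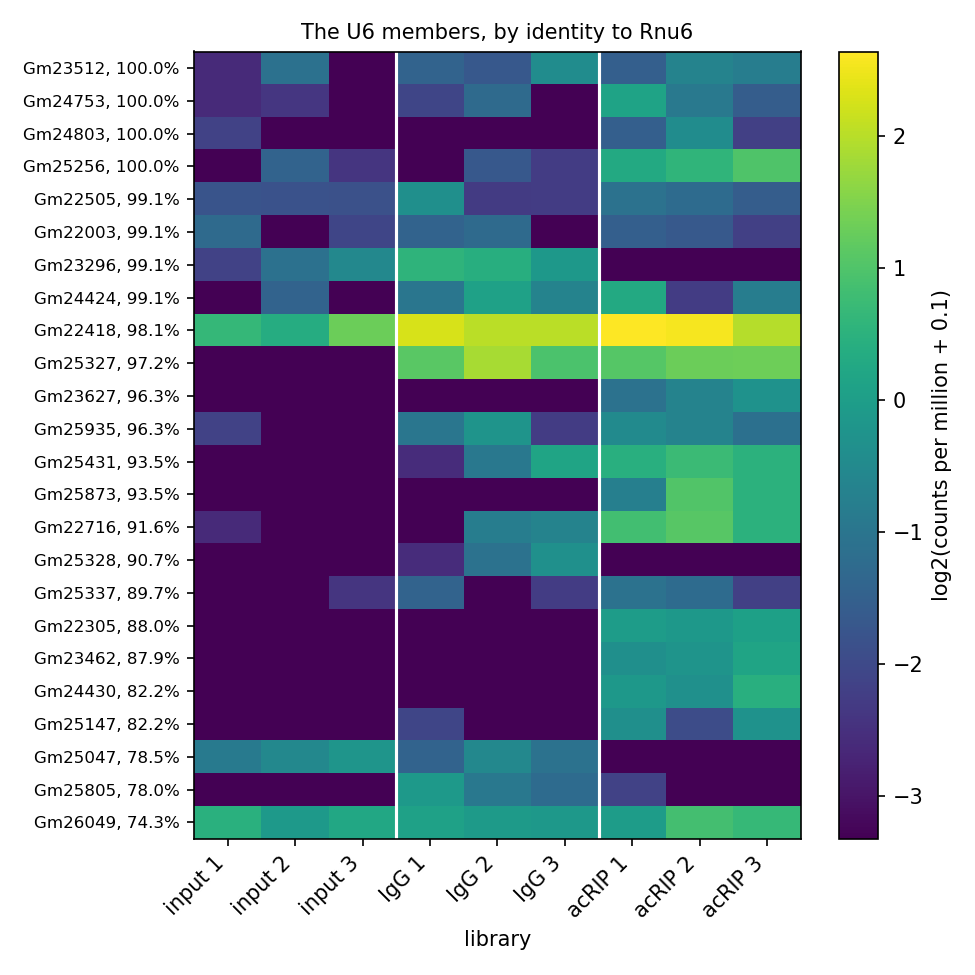
Log2(CPM + 0.1) of the 24 U6 members in the 9 libraries, ordered by percent identity to Rnu6, with white lines between groups. Copies present in all libraries of one group and at 0 in another lie at several points of this order.

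The most counted snRNA member, Gm25493, did not move with the antibody. It had 145, 107 and 87 counts in input, 61, 94 and 75 in IgG and 59, 83 and 75 in acRIP, with log2 fold changes of -0.02 ± 0.24 over IgG and -0.01 ± 0.23 over input. Gm22418, a U6 copy, had 46, 26 and 52 counts in input, 70, 74 and 74 in IgG and 98, 108 and 64 in acRIP, and was higher than input (1.74 ± 0.29) but not called over IgG. Gm25140 had 65, 53 and 32 counts in input, 4, 7 and 22 in IgG and 11, 42 and 19 in acRIP, a log2 fold change of 1.18 ± 0.54 over IgG with an adjusted p of 0.0542. That p fell to 0.00524 without IgG replicate 3, 0.0212 without acRIP replicate 1 and 0.0497 without acRIP replicate 3. It was also below 0.05 under RLE scaling (0.0495), upper quartile scaling (0.0442), a summed count of at least 20 as the filter (0.0459), no filter (0.0304) and halved counts (0.0455).

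Among the miRNA genes, Gm23935 had 197, 178 and 91 counts in input, 461, 580 and 508 in IgG and 1930, 2086 and 1625 in acRIP. The 3 groups did not overlap, at 6.16 ± 1.99, 29.9 ± 2.25 and 110 ± 11.9 CPM. Over IgG it rose by 1.93 ± 0.11 on the log2 scale, with an adjusted p of 3.06e-15. Over input the value was 4.23 ± 0.13, and for IgG over input 2.30 ± 0.13. It lies in an intron of Zc3h7a on the opposite strand, and Zc3h7a had 0.06 over IgG. Its identical copy Gm24270, in an intron of Peak1, had 25, 18 and 83 counts in input, 20, 71 and 32 in IgG and 125, 253 and 128 in acRIP, a log2 fold change of 2.11 ± 0.39 over IgG, with 1.27 in Peak1. Gm24187, with 1 base changed, had 0, 0 and 2 counts in input, 9, 20 and 21 in IgG and 16, 12 and 14 in acRIP. The division of reads among the 3 is uncertain under unique mapping, and their sequence was not compared with 28S rRNA here. A read lying wholly within Gm23935 or Gm24270 fits both and would be dropped. Counts of these identical copies therefore need reads or pairs that reach beyond the gene, and where those reads lie was not tested.

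Mir703 had 128, 59 and 42 counts in input, 102, 96 and 182 in IgG and 195, 307 and 201 in acRIP, 0.94 ± 0.23 on the log2 scale over IgG. Mir6236 had 16, 18 and 12 counts in input, 110, 112 and 160 in IgG and 146, 280 and 232 in acRIP. Its log2 fold change was 0.83 ± 0.21 over IgG and 3.60 ± 0.28 for IgG over input, so the larger step lay between input and IgG. Both had an adjusted p under 0.05 over IgG with a fold below 2. Mir703 passed a fold of 2 without IgG replicate 3 (1.23), acRIP replicate 1 (1.02) or acRIP replicate 3 (1.04), and Mir6236 did without acRIP replicate 1 (1.03).

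Of the miRNA genes known from male germ cells, few had reads. Mir34b, of the miR-34/449 family that acts in spermatogenesis, had 2, 0 and 5 counts in input, 7, 11 and 18 in IgG and 11, 7 and 7 in acRIP, and did not differ detectably between acRIP and IgG (-0.42 ± 0.71, adjusted p = 0.626). Mir509, of the X chromosome, had 14, 10 and 18 counts in acRIP and 0 in the other 6 libraries, at least 4.72-fold higher than IgG, or 2.36-fold against 3 read pairs. Mir883b, also X-linked, had 19 and 5 counts in IgG replicates 2 and 3 and 0 elsewhere, too few to be tested. Mir468 had 19, 17 and 11 counts in input, 5, 10 and 8 in IgG and 22, 22 and 34 in acRIP, 1.83 ± 0.57 over IgG.

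The cluster of miRNA genes in introns of Sfmbt2, a Polycomb protein gene, held 5 members, of which 3 were tested. Mir466p had 0, 0 and 2 counts in input, 9, 9 and 4 in IgG and 31, 24 and 18 in acRIP. Mir466 had 0 in input, 2, 10 and 4 in IgG and 17, 19 and 19 in acRIP. Both were higher in acRIP than both controls, and Mir466 is a member only through acRIP. Mir466l had 14, 11 and 20 counts in IgG and 0 in the other 6 libraries, at least 4.97-fold lower in acRIP than IgG, or 2.48-fold against 3 read pairs. The other two were not tested. Mir467d had 0 counts in input, 2, 4 and 2 in IgG and 8, 21 and 19 in acRIP, and Mir467e had 9, 5 and 15 counts in IgG and 0 in acRIP. For Sfmbt2 itself the value was 0.12, with an adjusted p of 0.295.

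Of the misc_RNA members, Rn7sk, the 7SK RNA that holds back the elongation factor P-TEFb, had 62, 34 and 26 counts in input, 22, 30 and 22 in IgG and 38, 40 and 44 in acRIP. On the log2 scale acRIP differed from IgG by 0.78 ± 0.38, at an adjusted p of 0.0676, and from input by 0.67 ± 0.36, at an adjusted p of 0.0967. Gm25265 had 25, 34 and 32 counts in acRIP and 0 in the other 6 libraries, at least 10.1-fold higher than IgG, or 5.03-fold against 3 read pairs. Gm24224, in an intron of Abhd2 on the opposite strand, had 94, 55 and 64 counts in input, 6, 32 and 16 in IgG and 34, 38 and 20 in acRIP. It was lower in IgG than input (-1.43 ± 0.41), and its 0.86 over IgG had an adjusted p of 0.0749, which fell to 0.00838 without IgG replicate 2 and 0.033 without acRIP replicate 3. Vaultrc5, a vault RNA, had 2, 2 and 0 counts in input, 22, 14 and 12 in IgG and 26, 13 and 20 in acRIP, high with either antibody. Gm27545 had 2, 0 and 0 counts in input, 7, 18 and 15 in IgG and 10, 42 and 20 in acRIP, high with either antibody too. Rn7s2, a 7SL RNA of the signal recognition particle, had 0 to 6 counts in every library and was not tested.

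The only scaRNA tested, Gm24289, lies in an intron of Tipin and overlaps the RefSeq gene of scaRNA 14. It had 22, 2 and 6 counts in input, 25, 26 and 62 in IgG and 8, 26 and 38 in acRIP, with -0.58 ± 0.54 over IgG. The acRIP libraries overlapped both other groups, while every IgG library was above every input library. It was higher than input in IgG (2.53 ± 0.59, adjusted p = 0.000514) and in acRIP (1.95 ± 0.60, adjusted p = 0.00439). The call for acRIP over input was lost without acRIP replicate 3 (adjusted p = 0.0544) and in the test against a fold of 2 (0.0581). Gm25395, overlapping the gene of scaRNA 6, had 12, 15 and 2 counts in IgG and 0 in the other 6 libraries, and Gm23119, of scaRNA 17, had 6, 15 and 22 in IgG and 0 in acRIP. Scarna2, the longest member, had 20 counts in all.

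**Figure D5:**
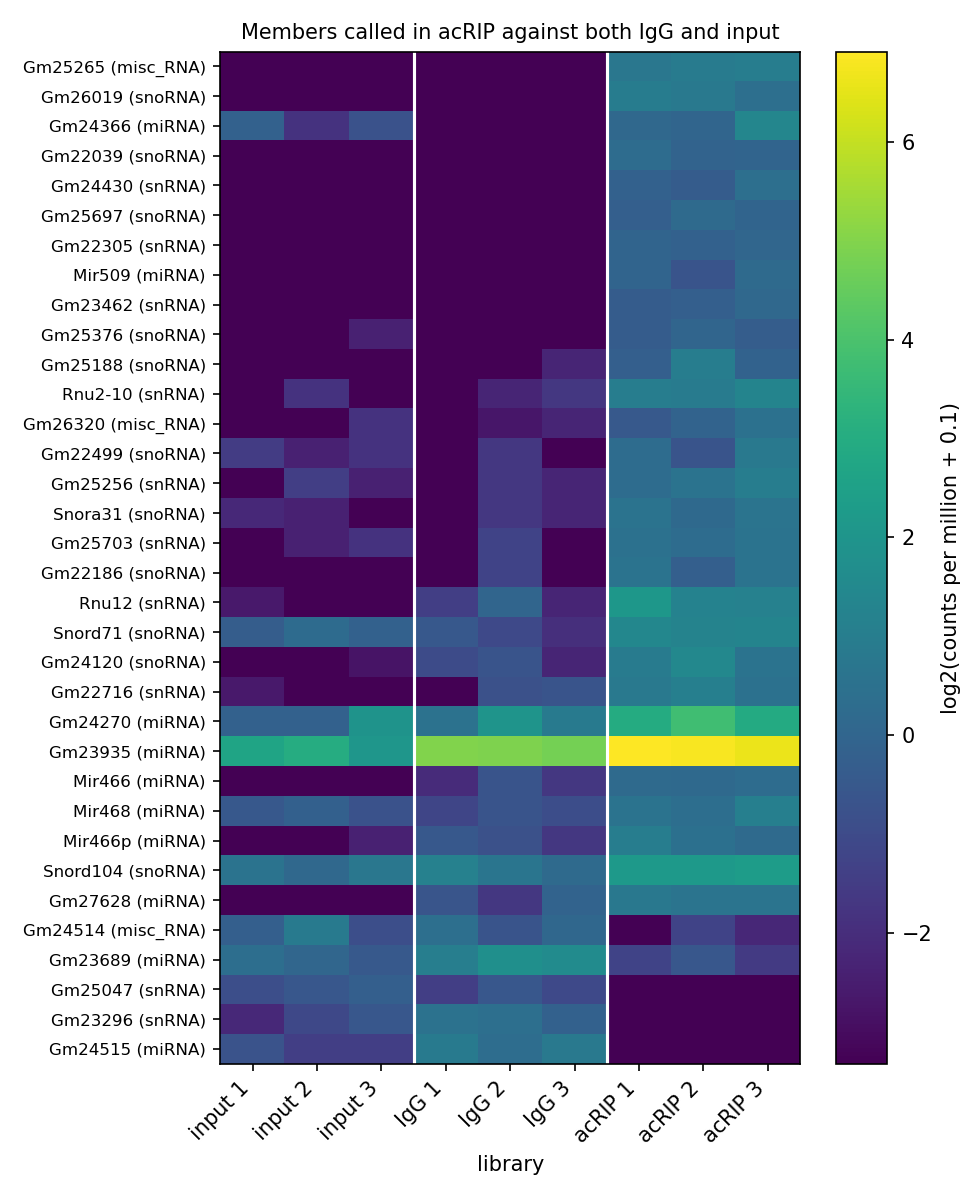
Log2(CPM + 0.1) of the 34 members called in acRIP against both IgG and input, in each of the 9 libraries, ordered by log2 fold change over IgG. The 29 members called higher fill the upper rows with the acRIP columns brightest, and the 5 called lower fill the bottom rows.

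Besides the U6 copies Gm23296 and Gm25047, the members lower than both were Gm24515, Gm23689 and Gm24514. Gm24515, a miRNA gene in an intron of Egf, had 16, 6 and 6 counts in input, 26, 22 and 31 in IgG and 0 in acRIP, at least 8.75-fold lower than IgG, or 4.38-fold against 3 read pairs. Gm23689, with 58 near copies, had 38, 21 and 14 counts in input, 29, 63 and 55 in IgG and 5, 11 and 4 in acRIP, -2.78 ± 0.50 over IgG and -1.20 ± 0.52 over input. The call over input was lost without input replicate 1 (adjusted p = 0.155) or 2 (0.0641), acRIP replicate 1 (0.101) or 3 (0.137), or IgG replicate 2 (0.0502), and also under DESeq2 (0.0582), the test against a fold of 2 (0.393) and halved counts (0.0711). Gm24514 had 24, 38 and 10 counts in input, 18, 10 and 18 in IgG and 0, 6 and 2 in acRIP, and lost its call over input without input replicate 2 (adjusted p = 0.062) and its call over IgG in the test against a fold of 2 (0.0543). Among the higher members named, Gm24366, with 25, 4 and 11 counts in input, 0 in IgG and 16, 17 and 42 in acRIP, lost its call over input without input replicate 2 (adjusted p = 0.124), input replicate 3 (0.0647) or acRIP replicate 3 (0.262), or in the test against a fold of 2 (0.184). Snord71 also lost its call over input in the test against a fold of 2 (0.113).

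All 3 libraries were at 0 for 48 members (23.2%) in input, 27 (13.04%) in IgG and 50 (24.2%) in acRIP. Of the 26603 genes of any type with a summed count of at least 20, the shares at 0 were 1.60%, 3.31% and 16.0%. Fewer genes had a count in the acRIP libraries, 22206 to 22402, than in IgG, 26204 to 26874, or input, 28552 to 29642, and the part of this in the members' zeros was not tested. Counts were found only in acRIP for 16 members (7.73%, against 0.459% of all such genes), only in IgG for 11 (5.31%, against 0.635%) and only in input for 1 (0.483%, against 1.31%). A count of 0 allows up to 3 counts, which covers counting error only. Of member counts from 1 to 20, 73.8% were even, and whether both mates of a pair were counted is not given in the sources used here.

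By position, 82 members lay in an intron of a gene on the same strand, 50 in an intron on the opposite strand, 68 between genes and 7 on an exon of another gene. Of the members 3.38% met an exon of another gene, against 20.6% of the 4692 small noncoding RNA genes with no count. Members were chosen on counts, and the methods do not say how reads meeting several genes were counted. The part of this in the difference was not tested. Without the strand setting of the counting, reads of a gene and of one it overlaps on the other strand cannot be told apart. Of the 82 same-strand intronic members, 31 were tested along with their host. The member's log2 fold change over IgG was above the host's in 24 of 31 pairs, with a median of 1.18 in members and -0.11 in hosts. A low-count member can be chosen and tested only through acRIP, and pairs can share a host. The pair count therefore describes the members chosen and carries no test. Of these members 11 were higher in acRIP than both. They have 10 distinct hosts, since Mir466p and Mir466 share Sfmbt2, and 2 of the 10, Peak1 and Gm35256, were called higher than IgG (1.27 and 1.38). The longest run of A had a median of 4 bases in members and 4 bases in genes with no count, and runs of at least 6 were found in 22.7% and 17.1%. Median GC content was 45.7% and 45.8%.

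Protein genes of the same pathways were counted for comparison. Of 19 snoRNP and scaRNP protein genes, 0 were higher and 4 lower in acRIP than IgG by the edgeR call, where 20.9% of all tested genes were lower, and the same 4 were lower than both, where 17% of all tested genes were and 7.88% were higher than both. They were Dkc1, the pseudouridine synthase of H/ACA RNPs, with 183, 146 and 140 counts in input, 120, 143 and 178 in IgG and 2, 2 and 2 in acRIP, and Wrap53, Shq1 and Ruvbl1 with log2 fold changes over IgG of -2.10, -1.58 and -1.45. Of 31 tested genes of spliceosomal snRNP proteins, Lsm7 alone was called higher than both (1.06 over IgG), and of 9 genes of the U12-type spliceosome none was called against both. Of 9 tested Microprocessor and Dicer genes, Ago1, an Argonaute protein, was lower than both, with 50, 84 and 68 counts in IgG and 0 in acRIP. Among 27 genes that process small RNA 3′ ends, Tent4a was higher than both (1.11 over IgG) and Toe1 (-1.14) and Nrde2 (-1.89) were lower. Among 27 RNA polymerase III genes, those lower than both included Gtf3c3 (-1.07) and Polr3a (-1.06), and none was higher than both. The medians over IgG of these 6 lists ran from -0.22 to -0.04, against -0.09 over all tested genes.

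At the limit of membership, 14 genes had a summed count of exactly 20 and 3 had 19. Of the first, Gm22303 had 2 counts in IgG and 18 in acRIP, Gm22545 had 20 counts in IgG, and Gm22973 had 2 in input, 12 in IgG and 6 in acRIP. Just outside were Gm24169, Gm24279 and Gm25437, of which Gm25437 had 15 and 4 counts in input replicates 1 and 2 and none elsewhere. Without the acRIP libraries 65 of the 207 members would not reach 20, without the IgG libraries 65, and without the input libraries 37. Of the well-known small RNA genes that did not reach it, Terc, Rmrp, Rpph1 and Rnu11 had no count in any library, Rnu6 had 12 counts and Mir34c 11.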

How the data were processed

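Wild-type mouse testis poly(A) RNA was profiled in 9 libraries, 3 per group, and groups were taken from the antibody named in the labels. The authors deposited 1 table of read counts per gene, not normalized. The submitters' notes and the methods name Trim Galore 0.6.7 for trimming, STAR 2.7.10a for mapping to mm10, from which uniquely mapped reads were kept, and featureCounts 2.0.2 for counting. Not given in the sources used here are the gene annotation behind the counts, its strandedness option and the unit counted, mates or pairs. No per-sample column was left unused (0).

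Genes were typed by GENCODE vM21, and all 207 members had the coordinates of that release. The members, lists and named genes were chosen with earlier results of these data known. The named members were the 5 most counted of each gene type (all 4 for scaRNA), the 10 highest and 5 lowest over IgG among those called against both controls with no overlap between libraries, and fixed genes of known function, and members described beside them as family or cluster mates were picked after their values were seen. Quasi-likelihood tests of edgeR 4.0.16 in R 4.3.3 (TMM scaling, filterByExpr, 22510 genes, all 9 libraries in 1 fit) gave log2 fold changes, standard errors and Benjamini-Hochberg adjusted p-values. DESeq2 1.42.0, limma 3.58.1 on FPKM computed here, other scalings and filters, and leaving out each library were alternatives. Counts halved for mates were added after seeing the data. In simulated acRIP and IgG libraries of 22510 genes the test recovered 82% of 2.5-fold and 100% of 4-fold increases, and 68% of decreases to 0.4 and 80% to 0.25 of the level, with 6 false calls. The simulation gave every gene the same dispersion and drew the changed genes from all 22510. Its rates were therefore not measured for low-count genes such as most members. Bounds and limits from a count of 0 cover counting error only. Sequences came from GRCm38, and mature miRNAs from RefSeq GRCm38.p6. Some items are not reported here.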

Additional observations from a re-analysis of the deposited data

How the results depend on the processing

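The direction of the summed level of all members did not change under any alternative run. On the log2 scale the sum in acRIP stood 0.77 above IgG and 2.55 above input, between 0.73 and 0.83 and between 2.48 and 2.62 when single libraries were left out. It was 0.64 and 2.24 over all small noncoding RNA genes with at least 1 count, and 2.27 over input without Snord13. The scaRNA sum, 0.99 above input, reversed to -3.13 without its largest member, Gm24289. Counts of called members differed between alternatives that tested different numbers of members. With a summed count of at least 20 as the filter, 58 were higher and 54 lower in acRIP than IgG, 22 lower than input, 73 higher in IgG than input, 50 higher than both and 16 lower than both. With no filter these were 55, 48, 19, 70, 46 and 14. DESeq2 gave 53 higher and 47 lower than IgG, 14 lower than input, 44 higher than both and 12 lower than both. Fitting only the 6 libraries compared gave 5 lower than IgG, 2 lower than input and 24 higher in IgG than input. Testing against a fold of 2 gave 23 higher and 1 lower in IgG than input and 3 lower than both. Halved counts, with 50 members tested, gave 2 lower than IgG, 38 higher and 2 lower than input, 27 higher in IgG than input, 21 higher than both, of which 17 were among the 29, and 1 lower than both. FPKM with a pseudocount of 1 and an unadjusted p gave 60 higher and 15 lower than both, and 53 and 25 with 0.1. The 29 members higher than both were all called under the RLE and upper quartile scalings, both looser filters and DESeq2, and 22 of them under the test against a fold of 2.

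Leaving out single libraries, with 111 to 122 members tested, gave 33 to 46 members higher and 11 to 20 lower in acRIP than IgG, 59 to 81 higher and 5 to 9 lower than input, 42 to 54 higher and 4 to 7 lower in IgG than input, and 26 to 42 higher and 4 to 8 lower than both. The 7 lower in IgG than input came without IgG replicate 1, and the 8 lower than both without input replicate 3. The cause was not tested.

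The labels number the replicates 1 to 3 in each group but do not say that a number pairs libraries, and deviations of same-numbered libraries correlated between -0.00659 and 0.0352. With the replicate number as a block, 28 members were higher in acRIP than both, 27 of them shared with the 29.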
